A study of Arabidopsis thaliana with 44 samples.

Results

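The floral organ identity genes of Arabidopsis thaliana specify sepals, petals, stamens and carpels, and 10 of them were followed across 9 tissues: AP1 (AT1G69120), AP2 (AT4G36920), AP3 (AT3G54340), PI (AT5G20240), AG (AT4G18960), SEP1 (AT5G15800), SEP2 (AT3G02310), SEP3 (AT1G24260), SEP4 (AT2G03710, listed under its older name AGL3) and LFY (AT5G61850). They were taken by gene identifier, with no measured value involved, from the 32833 genes of the expression table. All 10 were present there, and 92 of the 188282 listed m6A sites carried one of their identifiers. The 9 tissues of wild-type Col-0 plants were seedling (day 7), shoot and root (day 14), rosette leaf (day 30), cauline leaf, stem, flower and silique (collected once the plants had flowered) and dry seed. Each tissue had 2 biological replicates, and each replicate gave 1 library treated with MjDim1, the enzyme that makes m6A readable as a mutation, and 1 untreated input library, 36 libraries in all. A second experiment of 8 libraries set Col seedlings against mta seedlings of day 8, with 2 replicates per genotype. In mta (ABI3::MTA/mta) the only source of the m6A methyltransferase MTA is a transgene driven by the ABI3 promoter, which is active in the embryo, and no source used here gives the harvest day of the Col seedlings beside it.

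In the textbook model of the flower, A-function genes (AP1, AP2) act in sepals, A and B functions together in petals, B (AP3, PI) and C (AG) functions together in stamens, and C function alone in carpels, from which the fruit forms. SEP proteins provide the E function, as partners of the A, B and C proteins in complexes that bind DNA, and LFY is the transcription factor that switches several of these genes on in the young floral meristem. All but AP2 and LFY encode MADS-domain proteins. AP2 belongs to the AP2/ERF family, and its mRNA is a target of the microRNA miR172. m6A is the commonest internal mark of mRNA and is placed mainly in the sequence RAC (R stands for A or G), in plants mostly in the 3′ UTR and around the stop codon.

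The authors' input libraries held between 3355823 and 6903234 reads on genes (median 4829426), and the treated libraries between 10382637 and 14693950 (median 12349238). The tissues carried their markers. The summed level of the 12 anther markers was between 105.2 and 107.6 CPM (reads scaled to a common library size) in the flower libraries and at most 21.7 CPM elsewhere, and that of the 5 root markers was between 661 and 695.9 CPM in root and at most 131.8 CPM elsewhere. The 9 seed storage and oleosin markers summed to at least 176200 CPM in both seed libraries and to between 37550 and 39060 CPM in the silique libraries. In these bulk tissues, fewer cells of a type cannot be told apart from less RNA per cell.

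One library stood apart. In treated library 1 of rosette leaf, SEP2 had 110 reads against 2 in treated library 2 and 0 in both inputs, SEP1 98 against 1, SEP3 60 against 1 and AP3 32 against 0. AG had 15 reads against 6. These reads, scaled to library size, were between 3.71% and 4.89% of the levels of these 5 genes in the treated silique libraries, and the fruit genes SHP1, SHP2 and STK had 24, 57 and 69 reads there against 0 in treated library 2. The seed markers moved with them, at 2359 CPM in library 1 against 22.5 CPM in library 2, where the treated silique libraries held at least 39810 CPM. AP2 (133 and 93 reads) and SEP4 (197 and 178 reads) were present in both treated libraries of rosette leaf. The expression results below use the input libraries, in which rosette leaf had between 0 and 4 reads on each of the other 8 genes, so they do not rest on this library. The plot of reads in the 4 rosette leaf libraries shows the contrast.

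**Figure D1:**
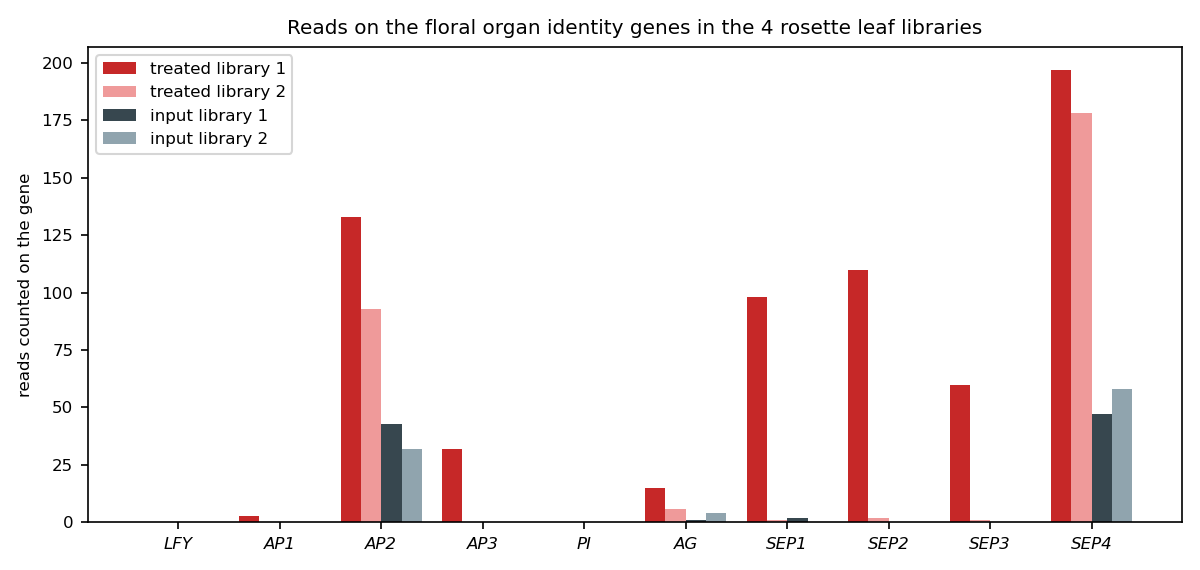
Reads counted on each floral organ identity gene (y axis) in the treated and input libraries of rosette leaf (colours). AP3, SEP1, SEP2 and SEP3 had between 32 and 110 reads in treated library 1 and at most 2 reads in each of the other 3 libraries.

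AP3, AG and SEP2 were read in flower and silique and had at most 4 reads in any other input library, while the remaining genes were also read in other tissues or, like LFY, hardly at all. In the fit of edgeR's quasi-likelihood test over all 18 input libraries, each of the 9 genes with enough reads to be tested was higher in flower than the mean of the other 8 tissues, where 41.5% of the 21805 tested genes were called higher and 19.4% lower at a Benjamini-Hochberg adjusted p under 0.05. The log2 difference ranged from 1.77 ± 0.228 (SE) for SEP4 and 2.32 ± 0.155 for AP2 to 9.53 ± 0.175 for AP1 and 9.84 ± 0.191 for AP3. It was returned with an adjusted p of 0, below what the software can hold, for AP1, AP3, PI, SEP1, SEP2 and SEP3, and of 7.12e-172 for AG, 4.07e-49 for AP2 and 4.14e-14 for SEP4. The difference is one of mean logs, so a tissue with 0 reads, such as seed or root for many of these genes, weighs heavily in it. With both seed libraries left out, an alternative added after the data were seen, all 9 were still called higher, as were 36.5% of all genes (25.2% were lower). AP2 was then at 1.13 and SEP4 at 0.66 on the log2 scale, and neither had its highest level in flower. PI was at 7.39 (8.09 with seed). All 9 also differed between tissues in the joint test, as did 99.3% of all tested genes. The spread between input replicates was small (biological coefficient of variation 0.0328). The fit weighted a spread shared over genes without limit (median prior degrees of freedom infinite). The p-values, and the words "beyond the spread" below, therefore refer to this shared spread and not to that of the single gene. It comes from only 2 samples per tissue.

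**Figure D2:**
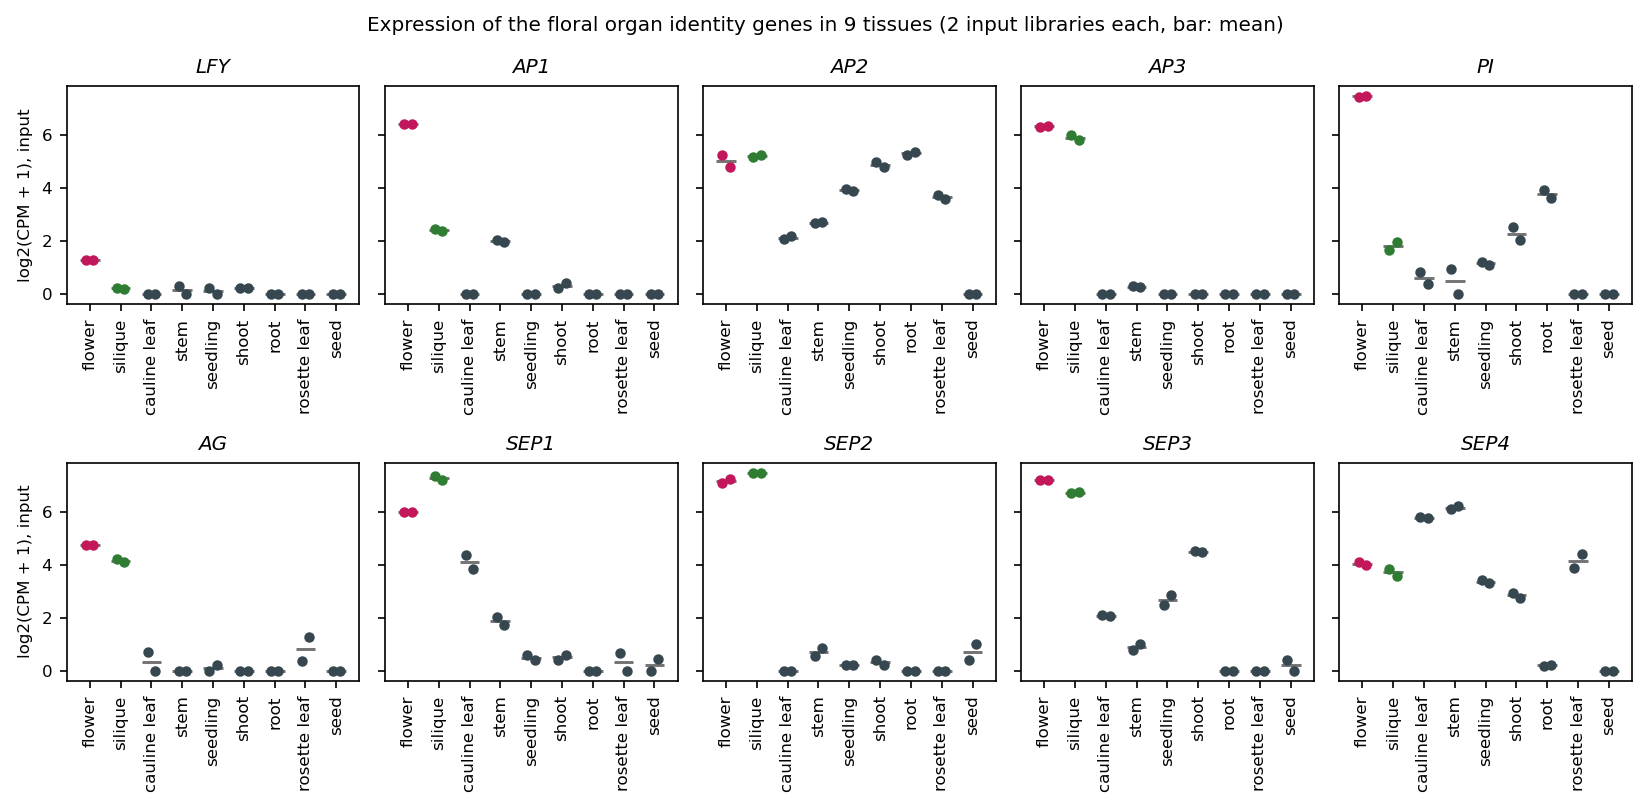
Level of each gene as log2(CPM + 1) in the 2 input libraries of every tissue (points) with their mean (bars), flower in pink and silique in green. AP1 stands high in flower alone, and PI in flower with a lower level in root. AP3, AG, SEP1, SEP2 and SEP3 stand high in flower and silique, with lower levels of SEP1 in cauline leaf and of SEP3 in shoot. AP2 and SEP4 are spread over most tissues.

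AP1, which acts in sepals and petals and in giving the floral meristem its identity, was the most confined to flower of the A-function genes. It had 483 and 421 reads in the flower libraries (86.0 ± 0.29 CPM, SD, n = 2), 27 and 27 in silique (4.40 CPM), 13 and 14 in stem (2.99 CPM), 1 and 2 in shoot and none in the other 5 tissues. Flower was thus 19.6-fold above silique and 28.8-fold above stem, and at least 167-fold above each tissue without a read, with the group's floor set at 3 reads. Silique and stem did not differ from each other beyond their spread (adjusted p = 0.144, edgeR), while both lay above shoot, the next in order. Over the 36 pairs of tissues, in which 66.1% of all gene tests were called (from 45.7% to 79.2% by pair), AP1 differed in 20. The other tested genes differed in between 15 (AP3) and 32 (SEP3 and SEP4) of these pairs.

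AP2, the A-function gene of another family, which also acts in seed size and outside the flower, was the most evenly spread member. Its highest level was in root, with 274 and 253 reads (39.1 ± 2.2 CPM), followed by silique with 209 and 238 (36.3 ± 1.3 CPM), flower with 209 and 132 (32.1 ± 7.4 CPM) and shoot with 180 and 163 (28.9 ± 2.7 CPM). Neighbours in this order did not differ beyond the spread (adjusted p between 0.212 and 0.381), but root was above flower (0.0235) and shoot (0.000155), and silique above shoot (0.00616, edgeR). Seedling followed at 14.3 CPM and rosette leaf at 11.9 CPM, a pair that did not differ from each other, then stem at 5.53 and cauline leaf at 3.4 CPM. Seed had 0 reads in both libraries, which places flower at least 63.1-fold and silique at least 70.7-fold above it. In flower, AP2 was 5.87-fold above stem and 9.69-fold above cauline leaf, and at 0.833 of root.

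The B-function genes AP3 and PI act as a pair in petals and stamens, since their proteins bind DNA as a dimer, but their levels parted in the fruit. AP3 had 447 and 394 reads in flower (80.0 ± 0.37 CPM) and 375 and 357 in silique (59.7 ± 5.5 CPM), with 1 and 1 in stem and none in any library of the other 6 tissues. PI had 982 and 879 reads in flower (177.2 ± 2.7 CPM) but 13 and 19 in silique (2.59 ± 0.54 CPM). From flower to silique PI therefore fell 68.0-fold and AP3 1.34-fold, and both differences passed the test, as did 57.6% of all genes between these tissues. PI in turn was read where AP3 was not: 105 and 72 reads in root (12.97 ± 2.0 CPM), 28 and 19 in shoot (3.96 CPM) and 8 and 7 in seedling (1.25 CPM). Root was the second tissue in the order of PI (adjusted p of 2.02e-14 against shoot), and the root libraries had 0 reads of AP3, AG, SEP1, SEP2, SEP3 and AP1. Anther markers, for the stamens in which both genes act, were no higher in root (at most 11.5 CPM) than in stem (at most 21.7 CPM).

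AG, the C-function gene of stamens and carpels, was read almost only in the 2 reproductive tissues. It had 144 and 127 reads in flower (25.8 ± 0.13 CPM) and 105 and 103 in silique (16.9 ± 1.2 CPM), a 1.52-fold difference (adjusted p = 0.00018). Other libraries held at most 4 reads, in rosette leaf (1 and 4), cauline leaf (4 and 0) and seedling (0 and 1). Neighbours in the order of these low tissues did not differ beyond their spread, whereas rosette leaf was above stem, seedling, shoot, root and seed (adjusted p between 0.00197 and 0.0384) and cauline leaf above shoot and root (0.0255 and 0.0154, edgeR). These calls rest on a handful of reads, those of cauline leaf on 1 library alone, and do not establish a level of AG in leaves.

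The E-function genes fell into a group shared by flower and silique and 1 gene of stems and leaves. SEP2 had 1033 and 1134 reads in silique (176.2 ± 1.6 CPM) and 756 and 730 in flower (141.9 ± 9.8 CPM), and at most 4 in any other library. SEP1 had 960 and 944 reads in silique (155.2 ± 11 CPM), 2.47-fold above flower with 351 and 307 (62.6 ± 0.06 CPM), and was also read in cauline leaf, with 129 and 41 reads (16.6 ± 4.8 CPM). SEP3 went the other way between the reproductive tissues, with 823 and 711 reads in flower (145.9 ± 1.4 CPM) and 606 and 676 in silique (104.2 ± 2.1 CPM). SEP3 was also read in the young plants, with 130 and 128 reads in shoot of day 14 (21.7 ± 0.72 CPM) and 27 and 38 in seedling of day 7 (5.38 CPM). Cauline leaf, taken after flowering, had 21 and 10 reads of SEP3 (3.24 CPM). The differences between silique and flower passed the test for all of SEP1 (5.78e-61), SEP2 (7.44e-06) and SEP3 (5.88e-11, adjusted p from edgeR).

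SEP4, whose role overlaps with that of the other SEP genes in the flower, had its highest levels outside it. Stem held 289 and 353 reads (70.9 ± 3.1 CPM) and cauline leaf 352 and 166 (54.1 ± 0.69 CPM), which differed from each other (adjusted p = 0.000288). Rosette leaf (47 and 58 reads, 17.0 ± 4.6 CPM), flower (91 and 73 reads, 15.6 ± 0.96 CPM), silique (79 and 70 reads, 12.2 ± 1.7 CPM) and seedling (58 and 54 reads, 9.30 CPM) followed. Neighbours in that run did not differ beyond their spread, but rosette leaf was above silique (adjusted p = 0.027) and seedling (0.000125), and flower above seedling (0.000101, edgeR). Shoot had 6.23 CPM, root 1 read in each library and seed none. Flower was at 0.22 of the stem level and 0.288 of the cauline leaf level, against 106-fold above root (2 reads in all, 95% counting interval 28.7 to 879) and at least 30.3-fold above seed, which enter the mean of logs with equal weight.

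LFY, which acts early and in few cells, had 8 and 7 reads in flower (1.43 CPM), 1 and 1 in silique and in shoot, 1 and 0 in stem and in seedling, and none elsewhere. It was under the filter on low counts and was not tested. Without that filter its log2 difference of flower minus the others was 4.57 (adjusted p = 9.87e-07), and in the treated libraries, with 33 and 29 reads in flower and at most 2 elsewhere, it was 6.58 (adjusted p = 2.46e-10).

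Against the 6 vegetative tissues, silique was higher for 8 of the 9 tested genes, where 40.2% of all genes were higher and 25.5% lower. The log2 difference was 10.93 ± 0.138 for SEP2, 10.68 ± 0.222 for AP3, 7.89 for SEP1, 7.53 for AG, 7.08 for SEP3, 5.75 for AP1, 1.56 ± 0.436 for PI and 1.56 ± 0.103 for AP2. The value of PI is one of mean logs, to which rosette leaf adds 0 reads: silique was at 0.201 of root for PI (adjusted p = 3.03e-21) and did not differ from shoot beyond the spread (0.1), while it was above the other 4 vegetative tissues. One library moved 3 of these values by over 1.5 times: PI was at 2.27 without stem library 1, AG at 8.21 without cauline leaf library 1 and SEP1 at 8.53 without rosette leaf library 1. SEP4, at 0.39 ± 0.181 (adjusted p = 0.0505), was not called. This missed call turned in several alternatives: SEP4 passed without seedling library 1, silique library 2, stem library 2, rosette leaf library 2 or shoot library 1 (adjusted p between 0.0287 and 0.0482), and had a log2 difference of −0.17 in the treated libraries.

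Per length of transcript (RPKM), the order of the genes changed from flower to fruit. In flower PI ranked first with 135.8 RPKM, 25.1% of the sum of the 10 genes, followed by SEP3 (114.8), SEP2 (93.1), AP3 (65.9), AP1 (49.3), SEP1 (40.8), AP2 (16.1), AG (12.4), SEP4 (10.7) and LFY (1.04). In silique SEP2 (115.7 RPKM), SEP1 (101.1) and SEP3 (82.0) led, and PI, at 1.98 RPKM, stood ninth. AG was eighth in flower and seventh in silique, at 8.17 RPKM, below AP2 in both tissues.

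Genes acting around this set were compared in the same way. Of the 10 other floral MADS-box genes tested (of 11), 8 were higher in flower and 2 were not called (median log2 difference 4.78 against 0.19 over all genes). STK, needed for ovules (7.69), SHP2 (5.95) and SHP1 (5.56), which pattern the fruit valve margin, and CAL (5.64), a close relative of AP1, led the list. Flower was not the highest tissue of STK, SHP2 and SHP1, which had 21.9, 14.6 and 27.3 CPM there and 91.5, 102.3 and 40.3 CPM in silique. CAL had 4.13 CPM in flower and 0.65 CPM in silique. SVP and SOC1, which time flowering, had values of −0.84 and −0.07 and were not called. Both have almost no reads in seed, and without seed they were called lower in flower, at −2.19 and −1.06. Of the 13 tested genes (of 17) that act downstream in organ formation, 11 were higher and 2 not called: CRC, a carpel and nectary gene (10.08), INO of the ovule integument (7.0), SPL, needed for sporogenesis (6.18), and JAG, which promotes organ growth (5.82), led, and BEL1 had the lowest value (0.36, adjusted p = 0.263). BEL1 was called lower, at −0.95, once seed was left out.

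Of the 9 tested (of 12) upstream and partner regulators, 6 were higher in flower, 1 lower and 2 not called. The stem cell gene WUS (6.94), SUP, which bounds the stamen whorl (6.23), PAN, an activator of AG (3.43), and TFL1, an inflorescence gene that opposes LFY (2.82), led. The corepressor gene SEU was lower (−0.58, adjusted p = 3.03e-10) and LUG, its partner, was not called (−0.10). Among the 5 other AP2-like targets of miR172, TOE3 (0.83) and TOE2 (0.49) were higher, TOE1 lower (−4.21), and SMZ (−0.41) and SNZ (−2.46) were not called. TOE1 had 1.21 CPM in flower and between 39.2 and 96.6 CPM in the 6 vegetative tissues, whereas AP2 had 32.1 CPM in flower and, at most, 39.1 CPM in a vegetative tissue. Without seed, TOE1 remained lower (−4.85), SNZ was called lower (−3.29) and TOE3 was no longer called. All 9 tested anther markers were higher in flower. None of the 9 seed markers was higher, and 3 were lower. The other 6 were not called, although their log2 differences lay between −5.44 (OLEO2, 0.10 CPM in flower) and −3.66 (SESA4). With so few reads in flower, these missed calls do not show equal levels. Of the root markers 1 of 5 was called higher (COBL9, at 0.56 CPM in flower). Of the green tissue markers 6 of 6 were called higher with seed and 3 higher and 3 lower without it.

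The genes whose tissue means were most like those of AP3, AG and AP2 were ranked by Pearson's r of log2(CPM + 1) over the 9 tissues, which share libraries and depth, so that r serves as a description. AP3 was followed most closely by SBT5.4 (r = 0.9991), a subtilase gene with 20.02 CPM in flower and 16.4 CPM in silique, SCPL47 (0.9989, 16.9 and 16.2 CPM) and ERF110 (0.9971, 6.07 and 4.0 CPM). For AG the nearest were VDD (0.9917, 3.39 and 2.83 CPM), ERF110 (0.9898) and KCS7 (0.9896). AP2 was matched by AT5G06050 (0.9939), SUVH4 (0.9938), which encodes a histone methyltransferase, and AT2G44660 (0.9799), each between 11.7 and 20.2 CPM in flower, silique and root.

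Of the 92 listed m6A sites of the set, 90 were called in at least 1 tissue, that is, with 20 or more reads and the mark with which the authors passed a site, and they lay in all genes but LFY. SEP1 had 16 called sites, AP3 14, SEP4 11, SEP2 and SEP3 10 each, PI 9, AP2 8, AP1 7 and AG 5, where the median over all 18723 genes with a called site was 8 (quartiles 3 and 13). The deposited fractions pool both replicates and are calibrated per motif on spike-in probes, so no spread, interval or test can be given for a site. The number of sites that can be called follows the depth: 58 were called in flower (9 genes), 57 in silique (7 genes), 12 in cauline leaf and in shoot, 9 in root, 8 in seedling, 6 in stem, 4 in rosette leaf and 0 in seed, where no member site reached 20 reads. Of the called sites, 40 were called in 1 tissue only (44.4%, over all genes 53.2%) and 4 in at least 5 (4.44%, over all genes 17.0%).

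In their sequence and place the sites leaned towards the 3′ UTR and RAC. Of the 88 called sites in a UTR or the coding sequence (CDS), 48 were in the 3′ UTR (54.5%, over all genes 35.6%), 34 in the CDS (38.6%, over all genes 61.5%) and 6 in the 5′ UTR, 5 of these in SEP1. The shares of all genes pool 9 tissues, whereas most of these genes were read mainly in flower and silique. By tissue, the set had 38 sites in the 3′ UTR and 18 in the CDS in flower, against 28752 and 23039 over all genes. In silique it had 27 and 24, against 24016 and 39553. RAC was the core of 58 sites (64.4%, over all genes 50.4%) and GAT that of 14 (15.6%, over all genes 17.5%). In flower the median fraction was 0.546 at 38 sites of the 3′ UTR and 0.23 at 18 sites of the CDS, close to the 0.584 and 0.219 of all genes. The genes differed in layout, as the plot of fractions along the transcripts shows: 8 of 9 sites of PI were in the 3′ UTR, while AP1 and AP3 had 4 of 7 and 8 of 14 in the CDS.

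**Figure D3:**
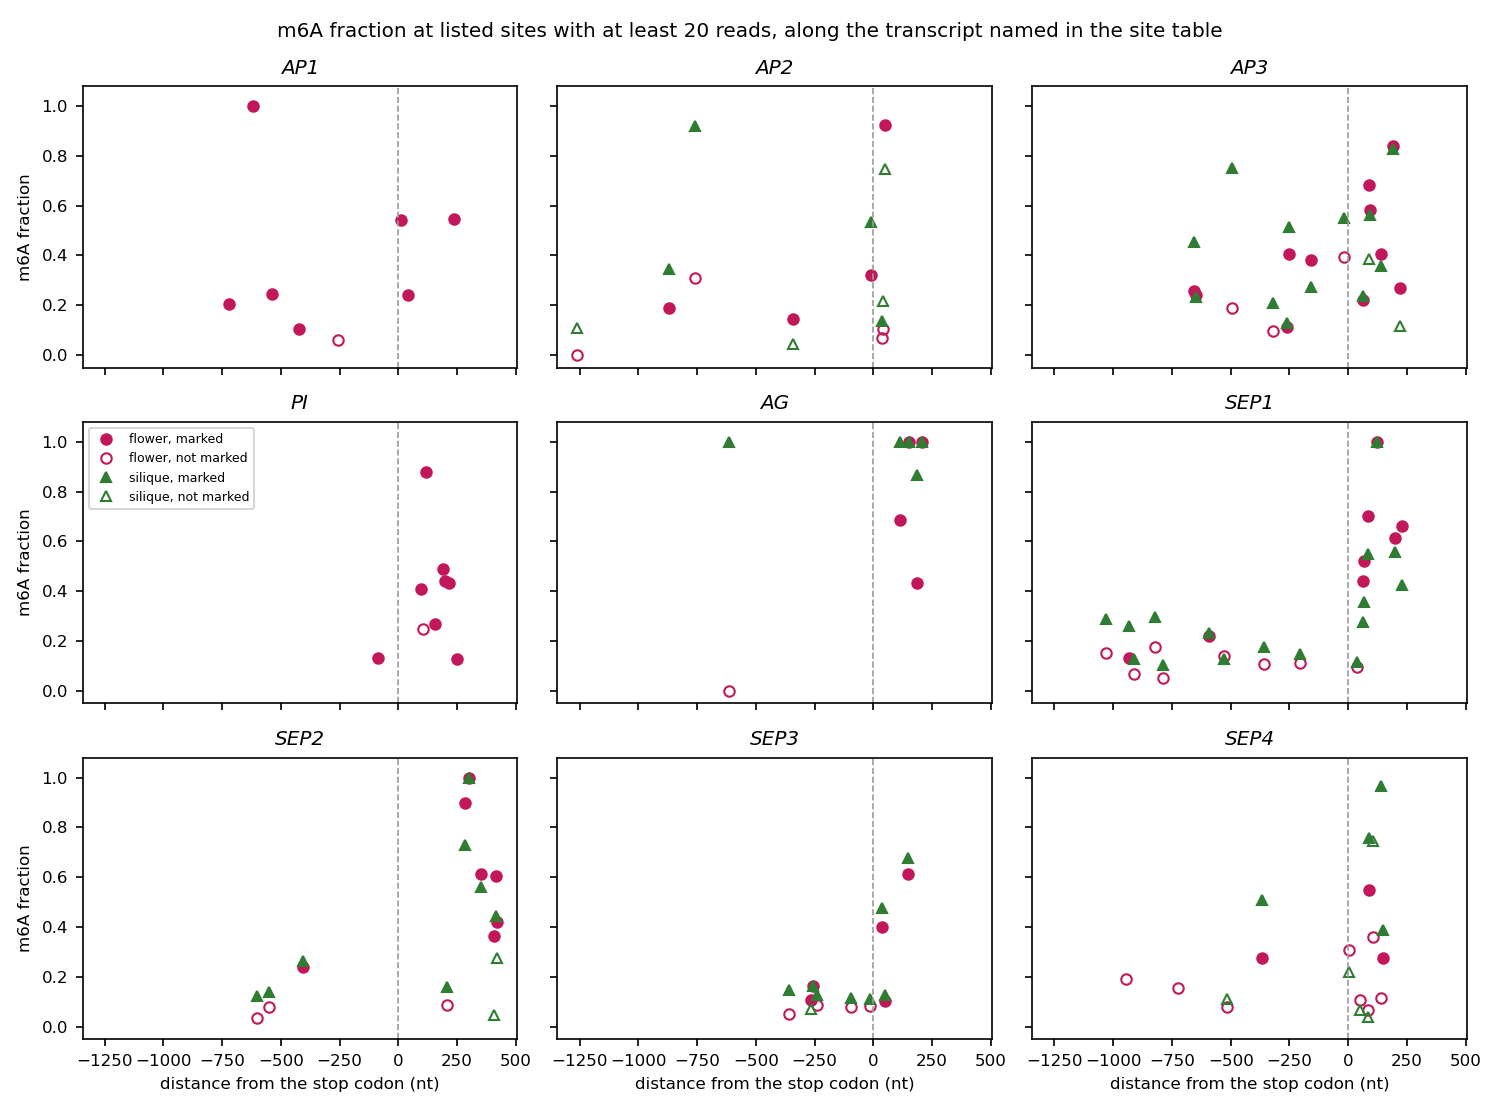
m6A fraction (y axis) of each listed site with at least 20 reads against its distance in nt from the stop codon of the transcript named in the site table (x axis, dashed line at the stop codon), in flower (circles) and silique (triangles), filled where the authors marked the site. Sites with a fraction of 1.00 in both tissues lie after the stop codon in AG, SEP1 and SEP2.

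The sites with the highest fractions are shown with 12 bases on either side (U written as T), read from the RefSeq TAIR10.1 genome on the strand of the gene. The 5 bases of the motif, in capitals, have the modified A at their centre, and they equalled the deposited motif at all 92 sites.
AP1, CDS, chr1:25985939-25985963: tcttctcccaTAAGGgaaaactctt
AP3, 3′ UTR, chr3:20119225-20119249: aatgttttcaAGACTtttatcatgt
PI, 3′ UTR, chr5:6831314-6831338: actcgctatcAGACTttttacttaa
AG, 3′ UTR, chr4:10388414-10388438: aatatcttaaAGACAtgtcattaat
SEP1, 3′ UTR, chr5:5151459-5151483: aggatcttcaAGACAtttgtatctt
SEP2, 3′ UTR, chr3:464422-464446: ttgcttttgtAGACAcaagtggcta
SEP3, 3′ UTR, chr1:8593631-8593655: ataattttttCGACAattttgcttc
In flower the AP1 site had a fraction of 1.00 at 520 reads, the AP3 site 0.839 (213 reads), the PI site 0.88 (1010 reads), the AG site 1.00 (134 reads), the SEP1 site 1.00 (113 reads), the SEP2 site 1.00 (287 reads) and the SEP3 site 0.612 (385 reads). In silique the last 4 genes were at the same or nearly the same fraction, with 1.00 for AG (52 reads), SEP1 (212 reads) and SEP2 (300 reads) and 0.676 for SEP3 (183 reads), and AP3 was at 0.827 (110 reads). The AP1 site is the exception in motif, since TAAGG has neither the RAC nor the GAT core, and in place, in the first exon, 33 nt before its end. Its low-depth values elsewhere were 0.773 in silique (17 reads) and 1.00 in stem (14 reads).

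The next 4 sites of AP1 in order of fraction were between 0.241 and 0.548 in flower. AG carried 3 more sites in its 3′ UTR, of which GTACT, 206 nt after the stop codon, was at 1.00 in both flower (112 reads) and silique (51 reads), while AAACA at 186 nt and GAATT at 115 nt were at 0.431 and 0.686 in flower and at 0.866 and 1.00 in silique. AG also held the largest gap between the reproductive tissues.
AG, CDS, chr4:10384133-10384157: tactctaacaACAGGtttcttcttc
This site had a fraction of 0 at 136 reads in flower and of 1.00, with the authors' mark, at 93 reads in silique. It lies 1 nt before the last base of the second of 10 exons, so that the bases after the motif shown here belong to the intron. Whether reads that cross this junction bear on the value was not tested.

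Between flower and silique, 71 sites of 7 genes had at least 20 reads in both tissues. The fraction was higher in silique at 43, lower at 24 and equal at 4, that is, higher at 60.6%, where it was higher at 56.4% of 132341 sites of all genes. In the CDS 23 of 28 sites were higher in silique (82.1%, over all genes 63.4%), while in the 3′ UTR 14 were higher and 19 lower of 37 (37.8% higher, over all genes 44.2%). Every listed site of the set was marked in some tissue, and most of these genes were read mainly in flower and silique. Many of the CDS sites, in AP2, AP3, AG, SEP1, SEP2 and SEP3, were marked in silique and not in flower, and few in flower and not in silique. Nearly all of the former were listed through their high silique value, so the CDS count is in large part set by the listing. How far this makes the excess over all genes was not tested. After AG, the widest gaps in the CDS were those of GTAGA sites, in AP3 (0.19 at 538 reads in flower, 0.75 at 351 reads in silique) and AP2 (0.311 at 66 reads and 0.921 at 66 reads), both marked in silique only. By gene, the higher fraction was in silique at 8 of 9 sites of SEP3 and 6 of 8 of AP2, and in flower at 5 of 10 sites of SEP2, with 1 equal. The plot of flower against silique gives every site.

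PI, the one gene with called sites in flower and root but not silique, carried higher fractions in root. Of the 8 sites with at least 20 reads in both tissues, 6 were higher in root and 2 lower (medians 0.727 and 0.419), where 26.3% of 130665 sites of all genes were higher in root. That share pools all regions, whereas nearly all of these PI sites lie in the 3′ UTR. The PI sites were also listed mainly through flower or root, and ATACT (0.249 in flower, 0.746 in root) was marked in root only. How far region or listing makes the excess was not tested. AGACT at 118 nt after the stop codon was at 0.88 in flower and at 1.00 in root (86 reads), and reached 0.719 in shoot (22 reads) and, under the depth used for a call, 1.00 in silique (13 reads) and 0.856 in seedling (6 reads). GAACT at 197 nt and AAACT at 216 nt were at 0.439 (671 reads) and 0.431 (437 reads) in flower and at 1.00 in root, with 63 and 30 reads. AAACG at 188 nt had the opposite order, with 0.489 in flower and 0.387 in root. In AP2, with 32.1 CPM in flower and 39.1 CPM in root, 3 of 8 sites were higher in root.

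AP2 was the only gene of the set with called sites in flower, silique, seedling, shoot and root, and its neighbouring sites after the stop codon ranked the tissues in different orders. The first site below ends the coding sequence, 9 nt before the last base of the stop codon, and the next sites lie 40 and 50 nt after it.
AP2, CDS, chr4:17403119-17403143: tcctctcatgAGACCttcttgaatc
AP2, 3′ UTR, chr4:17403168-17403192: tatataagaaAAACAaaaatgaacc
AP2, 3′ UTR, chr4:17403178-17403202: aaacaaaaatGAACCtttgaaatcc
AGACC was marked in 5 tissues, at 0.667 in shoot (68 reads), 0.535 in silique (98 reads), 0.378 in seedling (54 reads), 0.321 in flower (77 reads) and 0.201 in root (163 reads). AAACA was high in shoot (0.88, 58 reads) and seedling (0.721, 46 reads), at 0.271 in root, and unmarked at 0.106 in flower (81 reads). GAACC, 10 nt further on, was marked in flower alone, at 0.925 (84 reads), and unmarked at 0.748 in silique (77 reads), 0.488 in shoot and 0.24 in root. The order of flower and shoot was opposite at these 2 sites, each of which was marked in only 1 of the pair of tissues.

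All of these sites lie downstream of the place where miR172 pairs with AP2. The mature miR172a is shown with its seed, bases 2 to 8, in capitals, and below it the stretch of the last AP2 exon (exon 10 of 10, CDS) that best matches its reverse complement, both from the RefSeq genome.
miR172a, chr2:11942918-11942938, minus strand: aGAATCTTgatgatgctgcat
AP2, chr4:17403019-17403039, plus strand: ctgcagcatcatcaggattct
The stretch has 2 mismatches to the reverse complement of miR172a and 1 to that of miR172c and miR172d-3p, and no listed site falls within it. AGACC lies 92 nt after its end, AAACA 141 nt and GAACC 151 nt after it, and the nearest listed site upstream, AGATA in exon 8, 219 nt before it in the transcript.

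SEP4, with called sites in 7 tissues, held the other 3 sites called in at least 5 tissues. They lie in the 3′ UTR, at 87, 139 and 146 nt after the stop codon.
SEP4, chr2:1131703-1131727: tttgccagagAAACAtagttcatta
SEP4, chr2:1131755-1131779: ctctaatgtcAAACAccagattatt
SEP4, chr2:1131762-1131786: gtcaaacaccAGATTattacttttt
AAACA at 139 nt was at 1.00 in seedling (22 reads), 0.967 in silique (44 reads), 0.928 in rosette leaf (28 reads), 0.726 in stem (228 reads), 0.448 in cauline leaf (148 reads) and, without the mark, 0.116 in flower (74 reads). AGATT, 7 nt downstream and covered by almost the same reads, varied less, from 0.251 in stem (213 reads) and 0.275 in flower (69 reads) to 0.613 in rosette leaf (29 reads). AAACA at 87 nt was at 0.866 in rosette leaf (30 reads), 0.757 in silique, 0.744 in cauline leaf (178 reads), 0.55 in flower and 0.352 in stem (235 reads), and at 0 in seedling (30 reads), the tissue in which AAACA at 139 nt was highest. The rosette leaf values pool both treated libraries, and treated library 1 stood apart there, though the reads on SEP4 were alike in both. The plot of these sites by tissue shows the crossing orders in AP2 and SEP4.

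One site recurs at the same place of the MADS box, the stretch of the first coding exon that encodes the DNA-binding domain. The homologous 25 bases of the 8 MADS-domain genes were aligned to the AP1 site without gaps, with the 5 bases at the position of the motif in capitals.
AP1: caagatcaatAGACAagtgacattc
AP3: ccagacaaacAGACAagtgacgtat
SEP2: caaaatcaacAGACAagtgacgttt
SEP4: caagatcaatAGACAagttactttt
SEP1: caaaatcaacAGACAagtaacgttt
SEP3: caagatcaatAGGCAagtgacgttt
PI: cgcaaacaacAGAGTggtgacgttc
AG: cacaacgaatCGTCAagtcactttt
The first 4 genes have a listed site here, 134 nt before the end of the first exon in AP1, SEP2 and SEP4 and 137 nt in AP3. Its fraction was 0.204 in AP1 (238 reads) and 0.242 in AP3 (93 reads) in flower, and 0.234 in AP3 (79 reads) and 0.138 in SEP2 (456 reads) in silique, and it was marked for SEP4 in cauline leaf (0.245, 88 reads) and rosette leaf (0.443, 34 reads). It was unmarked for SEP2 in flower (0.0778, 385 reads) and for SEP4 in stem (0.151, 143 reads) and flower (0.156, 24 reads). SEP1 keeps AGACA at this place, with 5 bases different from AP1 over the window, and no site was listed, while SEP3, PI and AG have other letters there and no listed site.

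SEP1 and SEP2, the closest relatives in the set, share further sites. In the second exon both have AGACA 10 nt after a splice junction, and in the 3′ UTR both have AGACA within a stretch in which 22 of 25 bases are identical, as in the CDS.
SEP1, CDS: agcatgctcaAGACActtgatcggt
SEP2, CDS: agcatgctcaAGACActggaaaggt
SEP1, 3′ UTR: ttggatttgtAGACAtaagtggcta
SEP2, 3′ UTR: ttgcttttgtAGACAcaagtggcta
The fractions of the pair in the CDS were alike, at 0.219 and 0.24 in flower and 0.231 and 0.265 in silique (SEP1 first). In the 3′ UTR they parted, at 0.702 and 1.00 in flower and 0.548 and 1.00 in silique, and so did the AGACT sites next to them (0.523 and 0.898 in flower, 0.357 and 0.73 in silique). SEP2 was thus higher than SEP1 at both of these pairs in both tissues. At a further 3′ UTR pair of AGATC, with 15 of 25 bases identical, SEP1 and SEP2 were at 0.0968 and 0.0883 in flower, both unmarked, and at 0.116 and 0.159 in silique. Reads of such near-identical stretches could be shared between the 2 genes in the counting, and their split is uncertain. SEP1 is also the only member that overlaps annotated genes, both on the opposite strand: AT5G15790 covers the last 100 nt with 2 of its listed sites and the noncoding gene AT5G02455 a stretch of 449 nt with the 5 sites of its 5′ UTR. No source used here says whether the counting used strand.

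SEP1 in cauline leaf gave 4 called sites of the 3′ UTR, at 1.00 (22 reads), 0.533, 0.446 and 0.40, and SEP3 in shoot gave 4, at 0.524 (41 reads) and 0.476 (75 reads) in the 3′ UTR and 0.297 and 0.158 in the CDS. At the same 3′ UTR sites SEP3 stood at 0.612 and 0.40 in flower. In rosette leaf, 41 sites of AP3, AG, SEP1, SEP2 and SEP3 had at least 5 reads, and 40 of them were at a fraction of 0, the highest being 0.151, where 52.3% of all listed sites with 5 to 25 reads in rosette leaf were at 0. At SEP1 AGACA, 123 nt after the stop codon, 14 rosette leaf reads gave 0 where flower, silique and cauline leaf gave 1.00. The rosette leaf values pool both treated libraries. Nearly all reads on AP3, SEP1, SEP2 and SEP3 there came from treated library 1, which stood apart (SEP1 98 against 1, SEP2 110 against 2). The fractions of 0 thus rest mainly on that 1 library. The origin of its reads was not tested, so these fractions are not taken here as values of rosette leaf transcripts.

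In mta seedlings MTA was at 3.74 and 2.98 TPM (transcript abundance scaled for length and library size) in the inputs against 5.94 and 5.99 in Col (log2 difference −0.68 ± 0.111 SE, adjusted p = 0.0375 from limma on log2(TPM + 1)), which checks the labels. In seedlings 3 of the 10 genes could be tested, and 1 was called higher in mta, where 2.66% of 18420 genes were called higher and 12.4% lower (490 and 2279 genes, against 2991 and 2685 in edgeR on reads recovered from TPM). This was SEP4, with 5.18 and 4.01 TPM in mta against 2.63 and 2.28 in Col, a log2 difference of 0.69 ± 0.135 (adjusted p = 0.0479). All 4 values of SEP4 separate by genotype, but the call was lost with a pseudocount of 0.1 TPM (adjusted p = 0.0623), without the filter on low values (0.0758) and with any 1 library left out (between 0.112 and 0.17), and it held in edgeR on the recovered reads (1.07, adjusted p = 0.000266), an alternative chosen after the data were seen. The median difference of all genes was −0.14 in limma and −0.008 in edgeR, and SEP4 lay above it in both.

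SEP3 had 1.54 and 1.38 TPM in mta and 0.628 and 0.939 in Col (0.47 ± 0.115, adjusted p = 0.0686), and AP2 7.33 and 6.0 against 8.24 and 8.58 (−0.30 ± 0.111, adjusted p = 0.142). Neither was called. The other 7 genes had at most 3 reads in any input library of this experiment. The site table of the experiment listed 3 sites in these genes, of which none had 20 reads in both genotypes, so that whether their m6A depends on MTA was not detectable at this depth. Of 35196 sites of all genes, 29.9% reached 0.1 in Col and at most 2/3 of the Col value in mta. Only 48.8% of these 35196 sites were lower in mta by any amount, so the 29.9% is no net loss. The AP2 site AGACC next to the stop codon was at 0.145 in Col (18 reads) and, marked, at 0.301 in mta (17 reads), and AGATC of the SEP4 3′ UTR at 0 in Col (18 reads) and at 0.583 in mta (10 reads). The third, AGATG in the first exon of AP2, was at 0 in both.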

How the data were processed

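Counts of reads per gene and library were deposited by the authors without normalization for the tissue series, and TPM values with gene lengths for the mta experiment. The deposited site tables give, pooled over replicates, how many reads covered each site (a count), an m6A fraction that the authors calibrated per motif with spike-in probes, and whether the site passed their calling (the mark). The authors' pipeline used the TAIR10 build, and no source used here names the aligner, the counter or a version. Samples were grouped by their titles.

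Input counts were scaled by TMM, filtered with filterByExpr by tissue and tested with the quasi-likelihood test of edgeR 4.0.16 in R 4.3.3 over all 18 input libraries, with Benjamini-Hochberg adjustment over 21805 genes at 0.05. CPM are counts scaled to a common library size by these factors, and RPKM divides CPM by the deposited length. The mta test was planned on counts, but the file held TPM, so limma 3.58.1 was run on log2(TPM + 1), keeping genes whose mean reached 1 TPM. TPM times length gave whole reads within 0.05 for 100% of 84444 values under 50 reads. A called site had the mark and at least 20 reads. The smallest depth of a marked site was 5 reads. Intervals and floors of 3 reads cover counting error only.

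The genes and lists were chosen with earlier results of these data known. Named were all 10 genes, from each other list up to 4 genes with the largest and 2 with the lowest flower difference (marker lists are given by their sums and counts), the 3 genes most like AP3, AG and AP2, up to 5 sites of highest fraction per gene and those marked in at least 5 tissues. Sites beyond these were chosen after their values were seen. Alternatives were DESeq2 size factors, DESeq2 1.42.0, no filter, the treated libraries, the replicate block, each library left out, other depth minima (10 and 50 reads), a fraction above 0.05 without the mark and, for mta, a pseudocount of 0.1. Tests were run on simulated data with known changes first. Sequences were read from RefSeq's TAIR10.1 genome, whose letters matched the deposited motif at all 187374 nuclear sites.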

Additional observations from a re-analysis of the deposited data

Results flagged for a closer look

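The treated libraries were outside the comparisons of expression and were looked at for reads on genes that the inputs of the same tissue hardly held. In rosette leaf, treated library 1 had 32 reads of AP3 (0 in treated library 2 and in both inputs), 98 of SEP1 (1 in treated library 2, 2 and 0 in the inputs), 110 of SEP2 (2, 0 and 0) and 60 of SEP3 (1, 0 and 0). The summed level of the 9 seed markers moved with them, at 2359 CPM in treated library 1, 22.5 CPM in treated library 2 and at most 1.05 CPM in the inputs. The part that either plays in the other was not tested.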

How the results depend on the processing

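The count of tested genes called higher in flower, 9, and the 225 values of single genes kept direction and side of the threshold in every alternative run, with 10 called without the filter and in the treated libraries, where LFY was tested too. In the treated libraries the flower difference was lower by over 1.5 times for AP3 (8.82), SEP1 (4.71), SEP2 (6.88) and SEP3 (5.78), and without rosette leaf library 1 there it stayed so for SEP2 (7.46). The silique difference was likewise lower for AG (6.91), AP3 (8.94), SEP1 (6.42), SEP2 (8.26) and SEP3 (5.12), and without that library for SEP2 (9.02) and SEP3 (5.9). For silique against the vegetative tissues, 208 of 216 values did. SEP4 was the exception: it was at −0.173 in the treated libraries and −0.186 in the treated libraries without rosette leaf library 1 (a log2 difference, adjusted p = 0.237 and 0.133), and between 0.24 and 0.53 with each input library left out. With the replicate number as a block it was called at 0.39 (adjusted p = 0.05), which raised the count from 8 to 9. Same-numbered libraries did not deviate together (correlation between −0.0584 and 0.0898 over 36 pairs of tissues, 0.073 in the mta experiment), so the numbers are not a pairing. For mta, the count of 1 called gene became 0 with a pseudocount of 0.1, without the filter, with the replicate block, and with each library left out (0 in all 4), and AP2 turned from −0.30 to 0.056 in the treated libraries. Over all genes, 2769 were called in the mta comparison, against 1566 with a pseudocount of 0.1, 841 without the filter, 1270 in the treated libraries, 5676 with edgeR on recovered reads, and 0 with the block or any library left out. The sites of the set ranged from 86 to 92, and their 3′ UTR share from 53.9% to 54.5%. At a depth of 10 reads, 2 sites could be compared between mta and Col. Beyond the loss of residual samples with a library left out, the cause of these changes was not tested. Few reads on the genes limit LFY, every member in seed, and the seedling sites. The seed input libraries themselves were not shallow, with 4771507 and 4560899 reads against a median of 4829426.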
